A study of Mus musculus with 9 samples.

Results

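The genes described here are 10 genes of parathyroid hormone and vitamin D signalling: Pth1r, Pthlh, Vdr, Cyp24a1, Cyp27b1, Casr, Rgs2, Crem, Pde4d and Pde10a. They were followed in osteocyte-enriched bone of mice before, during and after lactation. A probe set, the group of probes that an Affymetrix array summarises into 1 value, was assigned to a gene only where the annotation gave it exactly 1 gene symbol. By that rule 9 of the 10 genes were measured, by 23 probe sets, among 18194 measured genes in all. No probe set of the annotation used here was assigned to Pthlh, which encodes parathyroid hormone-related protein, so Pthlh was not analysed here. Where a gene had several, its brightest probe set by mean over 9 arrays stands for it.

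Parathyroid hormone and parathyroid hormone-related protein, which the lactating mammary gland releases into the blood, act on the same receptor, encoded by Pth1r. That receptor couples to a stimulatory G protein and raises cyclic AMP in osteoblasts and osteocytes. Rgs2 and Crem are classical genes induced by the hormone through cyclic AMP, and phosphodiesterases such as those encoded by Pde4d and Pde10a break cyclic AMP down. The active form of vitamin D is made by the enzyme encoded by Cyp27b1, is inactivated by the enzyme encoded by Cyp24a1, and acts through the nuclear receptor encoded by Vdr. Casr encodes the calcium-sensing receptor through which parathyroid cells sense blood calcium. During lactation calcium is drawn from the maternal skeleton for milk, and it is restored after weaning. Osteocytes, the cells embedded in bone matrix, take part in that removal and replacement.

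The study asked which genes accompany removal and replacement of the matrix around osteocytes. It compared wild-type CD1 mice that were virgin, lactating or past lactation, with 3 arrays per group and 9 arrays in all. The mice were bought at 12 weeks and were 16 to 18 weeks old. Dams nursed 8 to 13 pups and were killed either on day 12 of lactation or 7 days after the pups had been taken away on day 12, while virgin mice of the same age were the controls. No transgene, gene deletion or drug was part of any group. Soft tissue, marrow and bone ends had been removed from the tibiae, and the shafts were digested repeatedly with collagenase and trypsin, with an EDTA step, before RNA was taken from the remaining bone powder. A sentence of the extraction protocol names femurs instead. The groups follow the sample titles: the source field of the postlactation arrays reads virgin. The labels do not say whether the arrays are of separate mice, and p-values therefore measure only a spread between arrays that may be technical.

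The values were log2 intensities from robust multi-array averaging, and the array medians lay between 4.32 and 4.82. The arrays fell into 3 array sets, each holding 1 array of every group. Arrays of different sets shared the exact value of at most 2 probe sets, while pairs within set 1 shared it for 2.50% to 2.72% of probe sets, within set 2 for 41.7% to 43.4% and within set 3 for 36.1% to 44.1%. Set 1 held virgin 1, lactation 3 and postlactation 1, set 2 held virgin 2, lactation 2 and postlactation 3, and set 3 held virgin 3, lactation 1 and postlactation 2. No label describes these sets. Each difference is therefore given over all 9 arrays, within each set, and with the set as a block. Of 10 listed osteocyte markers 8 lay above background, Sost and Dmp1 among them, while Fgf23 and Kera lay near it. Virgin 1 stood apart, with Sost at 8.14 against 13.39 and 13.55 in the other virgin arrays and Dmp1 at 11.90 against 13.82 and 13.88. The preparations also held RNA of other cells, since neutrophil markers stood 7.07 to 8.26 above the array median. Of 10 osteoclast markers 9 lay above background, and whether osteoclasts or osteocytes gave that signal was not tested.

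A gene was called near background when its mean over the 9 arrays was under 4.87, a level that 40% of the genes do not reach. Of 39 olfactory receptor genes, which bone is not known to use, 0 lay above that level, and their median was 3.05. Of the measured genes, 6 lay above the level (Pth1r, Vdr, Rgs2, Crem, Pde4d and Pde10a) and 3 lay below it (Casr, Cyp24a1 and Cyp27b1). The lowest of the 6 were Pde4d, with a mean of 5.40, and Pde10a, with a mean of 5.66. Of 6 genes of the Y chromosome, which female mice lack, the highest read 5.10, so levels close to 5 carry little weight as detection.

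The promoters of Rgs2 and Vdr are shown because these genes gave the 2 largest differences between lactation and postlactation in their group means. Both are the 250 bases before the transcription start in RefSeq (build GRCm38.p6), written 5′ to 3′ on the gene's own strand, and both genes lie on the minus strand. Capitals mark the half-site of the cyclic AMP response element, TGACG, or its reverse complement.
Rgs2, chr1:144004150-144004399: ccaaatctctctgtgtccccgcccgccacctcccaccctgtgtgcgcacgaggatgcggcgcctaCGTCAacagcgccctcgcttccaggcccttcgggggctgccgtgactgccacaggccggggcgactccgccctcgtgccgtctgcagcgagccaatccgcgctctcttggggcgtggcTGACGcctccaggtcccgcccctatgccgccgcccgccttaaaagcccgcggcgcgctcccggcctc
Vdr, chr15:97908297-97908546: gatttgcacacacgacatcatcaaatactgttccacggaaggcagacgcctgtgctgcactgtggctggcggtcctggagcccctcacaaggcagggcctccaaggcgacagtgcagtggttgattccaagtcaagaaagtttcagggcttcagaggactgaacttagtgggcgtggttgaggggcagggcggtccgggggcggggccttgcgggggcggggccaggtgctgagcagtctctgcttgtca
The Rgs2 window held 2 half-sites, 67 to 63 bases before the start on the gene's strand and 185 to 181 bases before it on the opposite strand. The Vdr window held 0. Over the 11 windows searched for 8 of the genes, Pthlh included, only Rgs2 and 1 of the 3 Pth1r windows held a half-site, on either strand. Crem was left out of the search and Cyp24a1 had no window in the reference used. Among all 32851 RefSeq windows of this length 17.8% held a half-site, 1.55% held the full element TGACGTCA, which contains the half-site, and 1.74% held a DR3-type vitamin D response element. None of the 11 windows held the full element or the DR3-type element, and Crem and Cyp24a1 were not examined for either. A match is a description of letters, not a bound site.

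The vitamin D receptor gene was lowest after lactation. Vdr read 7.44, 8.18 and 8.36 in the virgin arrays, 8.46, 8.43 and 8.31 in lactation and 7.26, 7.35 and 7.63 in postlactation. All 3 postlactation arrays lay below all 3 lactation arrays, while the virgin arrays, with virgin 1 lowest, overlapped both other groups. The group means were 7.99 ± 0.49 (SD, n = 3) in virgin mice, 8.40 ± 0.08 (SD, n = 3) in lactation and 7.41 ± 0.19 (SD, n = 3) in postlactation. Postlactation was 0.99 lower than lactation on the log2 scale, as the difference of -0.99 (SE 0.25, 95% interval -1.54 to -0.43), which is a 1.98-fold lower level.

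**Figure D1:**
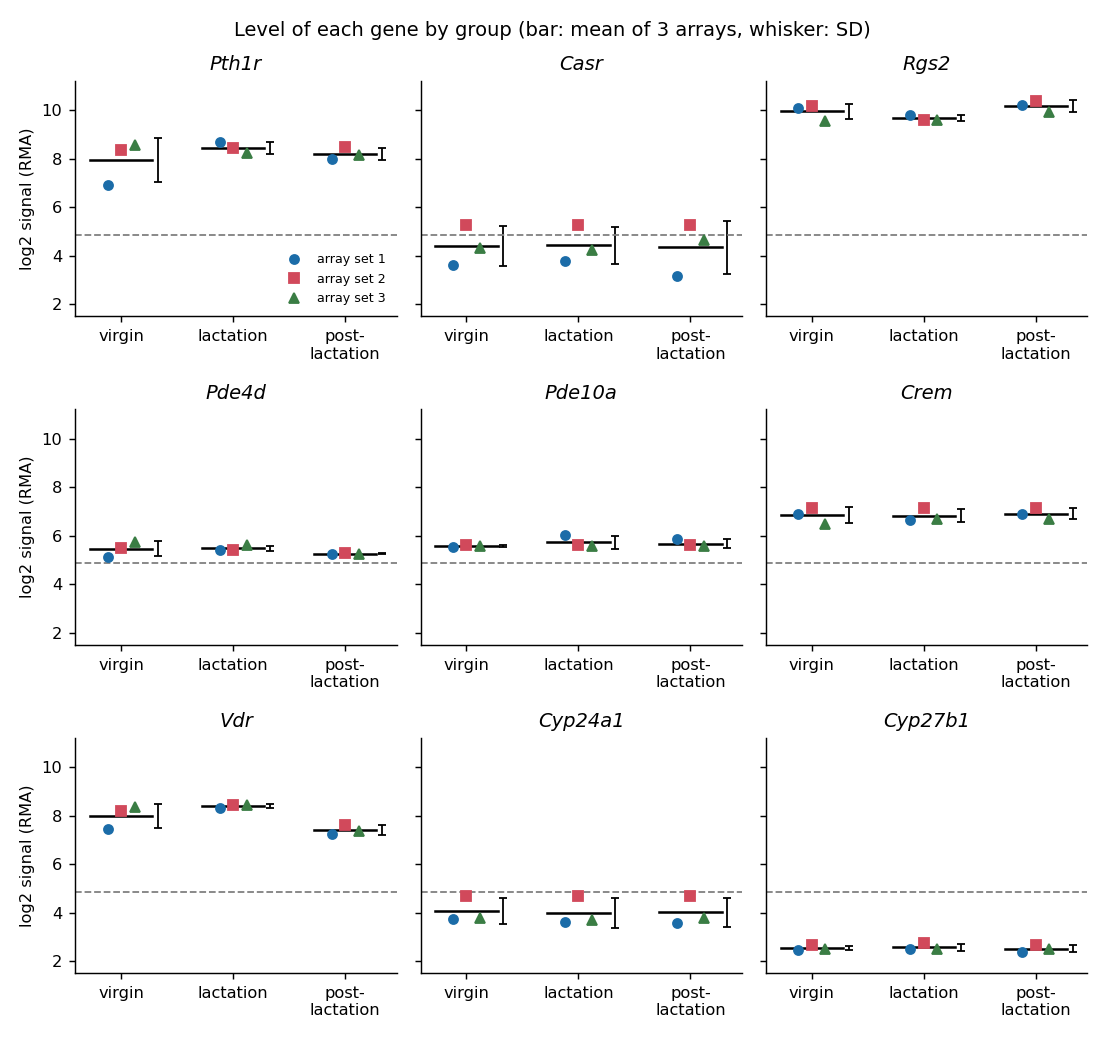
Log2 intensity (vertical axis) of the 9 measured genes in every array, with 1 panel per gene, points for the arrays of the virgin, lactation and postlactation groups, bars at the group means and whiskers for the SD. Symbols mark the 3 array sets and the dashed line is the background level of 4.87. Vdr and Rgs2 differ between lactation and postlactation in opposite directions, with no overlap of those groups, and the means of Casr, Cyp24a1 and Cyp27b1 lie below the dashed line.

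That Vdr difference did not pass the test over all genes without a block (limma, adjusted p = 0.195), which 0.709% of genes passed. It passed once the array set entered as a block (limma, SE 0.17, 95% interval -1.40 to -0.57, adjusted p = 0.0370), where 3.53% of genes did. That fit borrows its spread from all genes, and only 4553 of 18194 had no exactly equal (tied) values within a set. Its SE may therefore be too small, here and for the other genes called with the block. Over those 4553 genes alone the block SE of Vdr was 0.18 (limma, adjusted p = 0.0129), and 20.2% of them were called. Within the sets Vdr differed between postlactation and lactation by -1.05 in set 1, -0.81 in set 2 and -1.10 in set 3. The other Vdr probe set, 1418175_at, read 6.69, 7.70 and 7.82 in virgin mice, 8.09, 8.17 and 7.20 in lactation and 6.49, 7.02 and 7.15 in postlactation. Its postlactation arrays also lay below its lactation arrays, by a mean of -0.93. In a limma fit of all 34958 single-gene probe sets its adjusted p was 0.921 without a block and 0.0160 with the set block, where the brighter probe set had 0.0488. These fits called 0.452% and 2.25% of the probe sets. With any 1 array left out, the difference of the brighter probe set stayed between -1.09 and -0.85.

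The call itself depended on the fit. Of 31 alternative fits that gave a p for Vdr, 9 called it, and their adjusted p ranged from 0.0129 to 0.652. With the set block the call held without virgin 1 (limma, adjusted p = 0.0138) and without virgin 3 (0.0259). It was lost without virgin 2 (0.0844), lactation 1 (0.124), lactation 2 (0.140), lactation 3 (0.204), postlactation 1 (0.135), postlactation 2 (0.140) or postlactation 3 (0.124). Without a block it was gained only when virgin 1 was left out (limma, adjusted p = 0.0490) or when the array medians were subtracted (0.0466), a setting that called 1.01% of genes.

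Markers listed for other cell types moved between the same 2 groups. All 9 measured erythroid markers fell from lactation to postlactation in the limma fit, by a median log2 difference of -4.79, and their mean level above the array median went from 4.76 to 5.13 in lactation to 0.04 to 1.06 in postlactation. Of 10 osteoclast markers 9 read lower in postlactation, with a median difference of -0.98, and 5 of them were called with the set block. In this comparison 0.709% of all genes were called without a block and 3.53% with it. The defining marker Calcr lay near background. The mean level of the osteoclast markers stood 3.78 to 4.23 above the array median in lactation and 2.91 to 3.49 in postlactation. Osteocyte markers stood at 4.26 to 4.36 in lactation and 3.98 to 4.53 in postlactation, and 0 of 10 were called. All 9 measured B lymphocyte markers had a higher mean in postlactation, with a median difference of 1.24, of 1.78, 1.27 and 1.12 within the sets, and 1 of them was called, with the set block only. Their mean level above the array median was 2.03 to 2.74 in lactation, 3.20 to 3.89 in postlactation and 1.22 to 2.84 in virgin mice. The 4 measured adipocyte markers also had a higher mean in postlactation, with a median difference of 0.75, of 1.51, 0.75 and -0.03 within the sets, and 0 were called. Of 10 endothelial and mural markers 9 had a higher mean in postlactation, with a median difference of 0.33, and 0 were called. Within the sets that median was 0.96, 0.22 and -0.03. The part of these cells in the Vdr difference was not tested. In bulk RNA, fewer cells of a type and less RNA per cell cannot be told apart.

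Against virgin mice, Vdr gave smaller differences. Lactation stood above virgin by 0.41 (SE 0.25, 95% interval -0.14 to 0.97; limma, adjusted p = 1.00 without a block and 0.627 with it). The differences within sets were 0.88, 0.26 and 0.10, and the largest belonged to the set that holds virgin 1. Without virgin 1 the difference over all sets was 0.13. Postlactation stood at -0.58 relative to virgin (SE 0.25, 95% interval -1.13 to -0.02; limma, adjusted p = 1.00 without a block and 0.400 with it). With the block the interval was -0.99 to -0.16, so both intervals, which are not adjusted over all genes, leave out 0. Within the sets the difference was -0.18, -0.55 and -1.0. In order of level, lactation came first, virgin next and postlactation last, and neither step next to virgin passed the test adjusted over all genes.

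**Figure D2:**
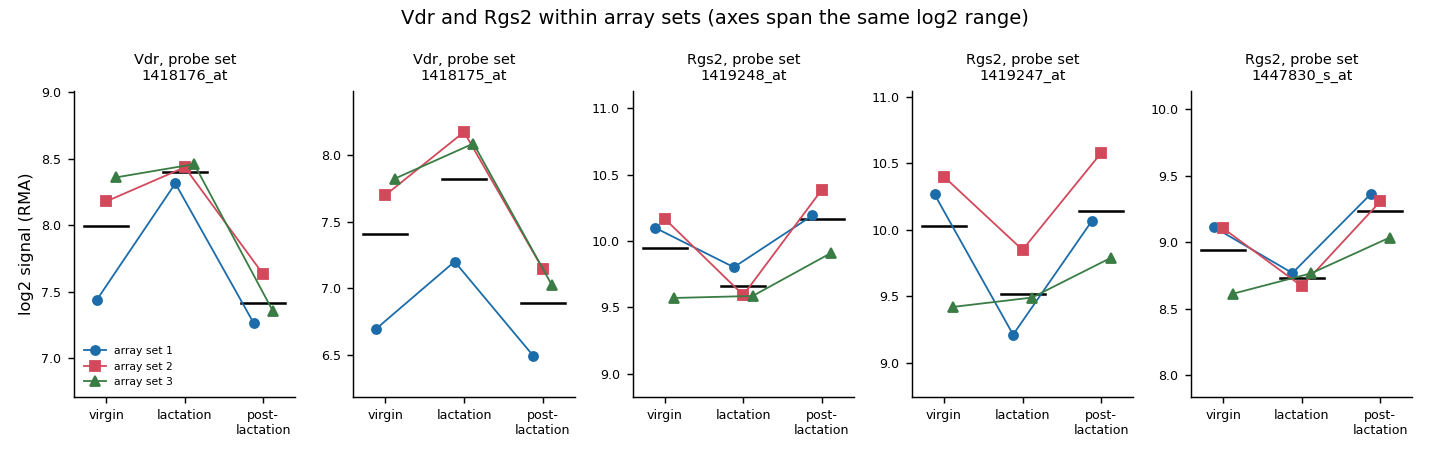
Log2 intensity (vertical axis) in the virgin, lactation and postlactation arrays (horizontal axis) for the 2 Vdr and 3 Rgs2 probe sets above background, with a line joining the 3 arrays of each array set and bars at the group means. The lines of all 3 sets run down from lactation to postlactation for Vdr and up for Rgs2, whereas from virgin to lactation they run up for Vdr in all 3 sets, by differing amounts, and in both directions for Rgs2.

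The vitamin D enzymes gave no usable level. Cyp24a1, the standard vitamin D target that encodes the inactivating enzyme, read 3.73, 4.70 and 3.77 in virgin arrays, 3.69, 4.70 and 3.60 in lactation and 3.59, 3.77 and 4.70 in postlactation. The 3 values of 4.70 are the 3 arrays of set 2, so the spread follows the sets and not the groups. Cyp27b1, the activating enzyme, read between 2.37 and 2.75 in all 9 arrays. Both lie near background, and no fold is given for either.

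Among the genes around the vitamin D receptor, the retinoid X receptor gene Rxra, its usual partner, had means of 6.72 in virgin mice, 6.78 in lactation and 6.94 in postlactation. The list of vitamin D metabolism genes and receptor partners had 15 measured genes, of which 9 lay above background. Of the 15 genes 0 were called in any comparison with or without the set block, where at most 3.53% of all genes were. At an unadjusted p under 0.05 the limma fits also held 0 of the 15 in each of the 3 group comparisons. Of all genes 1.80% reached that p between lactation and virgin, 5.06% between postlactation and lactation and 2.09% between postlactation and virgin. With the block these shares were 8.01%, 15.1% and 8.11%. The list of vitamin D targets and calcium handling genes had 14 measured genes, of which 7 lay above background and 0 were called by limma in any comparison. At an unadjusted p under 0.05 between postlactation and lactation it held 1 gene without a block and 4 with it, while of all genes 5.06% and 15.1% reached that p. Its gene with the smallest p against virgin was Slc20a2, a sodium-phosphate cotransporter gene, with means of 6.64 ± 0.55 (SD, n = 3) in virgin mice, 7.23 ± 0.22 (SD, n = 3) in lactation and 8.22 ± 0.16 (SD, n = 3) in postlactation. Its difference between postlactation and virgin was 1.58 (SE 0.27; limma, adjusted p = 0.0613 without a block and 0.125 with it). The epithelial calcium channel gene Trpv6, a vitamin D target of the gut, lay near background.

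The parathyroid hormone receptor gene was above background in every group. Pth1r read 6.93, 8.37 and 8.57 in virgin mice, 8.22, 8.42 and 8.68 in lactation and 7.97, 8.14 and 8.47 in postlactation. Apart from virgin 1 all arrays lay between 7.97 and 8.68, and the groups overlapped. Lactation stood 0.48 above virgin (SE 0.37, 95% interval -0.34 to 1.31; limma, adjusted p = 1.00, and 0.795 with the set block). Within the sets that difference was 1.76 in the set with virgin 1 and 0.05 and -0.35 in the others, and without virgin 1 it was -0.030. Postlactation differed from lactation by -0.25 (SE 0.37, 95% interval -1.07 to 0.58) and from virgin by 0.24 (SE 0.37). A difference as large as that of Vdr lies inside the interval for postlactation against lactation. Virgin 1 is also the array with low Sost and Dmp1, as given above, and the part of that in the Pth1r value was not tested.

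Some of the other ligands and receptors of the class were dim. Of 10 measured genes on that list 5 lay above background, Pth itself lay near background, and 0 were called by limma in any comparison. At an unadjusted p under 0.05 between postlactation and lactation there were 0 without a block and 3 with it, against 5.06% and 15.1% of all genes. Ramp1, which encodes a partner protein of calcitonin-family receptors, had the smallest p between lactation and postlactation, with a difference of 0.31 (SE 0.20; limma, adjusted p = 1.00 without a block and 0.159 with it). Casr read 3.60, 5.27 and 4.34 in virgin arrays, 4.23, 5.27 and 3.78 in lactation and 3.15, 4.63 and 5.27 in postlactation. Its mean lay near background, the 3 values of 5.27 all belong to set 2, and no fold is given.

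Rgs2 had the opposite pattern to Vdr. The gene encodes a regulator of G protein signalling that dampens signals from such receptors. It read 10.10, 10.17 and 9.57 in virgin mice, 9.59, 9.59 and 9.80 in lactation and 10.19, 9.91 and 10.39 in postlactation. Every postlactation array lay above every lactation array, and the virgin arrays overlapped both groups. The means were 9.95 ± 0.33 (SD, n = 3), 9.66 ± 0.12 (SD, n = 3) and 10.16 ± 0.24 (SD, n = 3).

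Postlactation stood 0.50 above lactation for Rgs2, a 1.42-fold higher level (SE 0.23, 95% interval 0.00 to 1.00), and the difference did not pass the test (limma, adjusted p = 0.980 without a block and 0.105 with it). It was 0.39, 0.79 and 0.32 within the sets. It passed with the set block only where the test was restricted to the 4553 genes with no tied value inside a set (limma, adjusted p = 0.0479), a fit that called 20.2% of them. Of the other Rgs2 probe sets above background, 1447830_s_at gave 0.50 with no overlap of the groups, and 1419247_at gave 0.63 with overlap. The dimmest, 1443250_at, lay near background at 3.73. Lactation differed from virgin by -0.29 (SE 0.23; limma, adjusted p = 1.00 and, with the set block, 0.651), and within sets by -0.30, -0.57 and 0.01. Postlactation differed from virgin by 0.22 (SE 0.23), and by 0.030 without virgin 3 and 0.34 without postlactation 2. By level the order was postlactation, virgin, lactation, and no neighbouring step passed the test.

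Neutrophil markers stood 7.07 to 7.71 above the array median in lactation, 7.70 to 7.88 in postlactation and 7.29 to 8.26 in virgin mice. Between lactation and postlactation 7 of 9 of them read higher, with a median difference of 0.31. After the mean of each array set was removed, the gene most like Rgs2 over the 9 arrays was Ltf, a neutrophil granule gene, with Pearson's r = 0.99, followed by Sun2 and Cntrl, each at 0.98. In the values as deposited, the nearest 3 were Lsp1 at 0.97, Camp, also a granule gene, at 0.96, and Sh3bgrl3 at 0.96. The correlations were picked from 10916 genes above background and describe 9 arrays that share sets and groups. The larger B lymphocyte difference given beside Vdr, a median of 1.24, lies between the same groups. The part of neutrophil or B lymphocyte RNA in the Rgs2 difference was not tested. For Vdr the nearest genes were Nbn and Hbs1l, each at 0.99, and Pfkm at 0.98.

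Of 17 other measured RGS genes 11 lay above background, and 0 were called by limma in any comparison, with 1 at an unadjusted p under 0.05 between postlactation and lactation without a block and 4 with it (all genes, 5.06% and 15.1%). Between lactation and postlactation 13 of the 17 had a higher mean, with a median difference of 0.13 against 0.00 over all genes. Rgs12 had the smallest p, at -0.55 (SE 0.25; limma, adjusted p = 0.962 without a block and 0.200 with it).

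Crem, whose cyclic AMP-induced short product represses cyclic AMP targets, did not separate the groups. It read 6.91, 7.13 and 6.49 in virgin mice, 6.69, 7.13 and 6.66 in lactation and 6.91, 6.69 and 7.13 in postlactation. The 3 arrays of set 2 shared the value 7.13 exactly, so the difference within that set was 0. Lactation differed from virgin by -0.02 (SE 0.24, 95% interval -0.54 to 0.51) and postlactation from lactation by 0.08 (SE 0.24, 95% interval -0.44 to 0.61). The second probe set above background, 1418322_at, differed by 0.01 between postlactation and lactation. The remaining 2 Crem probe sets lay near background, and these values do not separate the short product from the full-length one.

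The phosphodiesterase genes were close to the background level. Pde4d, which encodes a cyclic AMP-specific enzyme, read 5.14, 5.50 and 5.75 in virgin mice, 5.60, 5.42 and 5.42 in lactation and 5.25, 5.25 and 5.29 in postlactation. The postlactation arrays lay below the lactation arrays and inside the range of the virgin arrays. Postlactation stood at -0.22 against lactation (SE 0.21, 95% interval -0.67 to 0.24; limma, adjusted p = 1.00 without a block and 0.478 with it), with -0.16, -0.13 and -0.35 within the sets. Lactation differed from virgin by 0.02 (SE 0.21).

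Pde10a, whose enzyme breaks down cyclic AMP and cyclic GMP, read 5.52, 5.60 and 5.56 in virgin mice, 5.56, 5.60 and 6.04 in lactation and 5.87, 5.56 and 5.60 in postlactation. All 3 arrays of set 2 shared 5.60 and all 3 of set 3 shared 5.56, so every difference between groups came from set 1. Lactation stood 0.18 above virgin (SE 0.21, 95% interval -0.28 to 0.63) and postlactation differed from lactation by -0.06 (SE 0.21, 95% interval -0.51 to 0.40). Of its 5 probe sets only this brightest one lay above background.

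Read together, 0 of the 9 genes passed the test between lactation and virgin (limma, adjusted p under 0.05), where 0% of all genes passed without a block and 0.022% with it. At an unadjusted p under 0.05 the 9 genes also gave 0, against 328 of all genes without a block and 1457 with it. Between postlactation and lactation 0 of the 9 passed without a block, against 0.709% of all genes, and 1, Vdr, passed with it, against 3.53%. Vdr and Rgs2 had an unadjusted p under 0.05 in both of those fits, as did 921 of all genes without a block and 2740 with it. Between postlactation and virgin 0 passed, against 0.176% of all genes without a block and 0.451% with it. Of the 9 genes Vdr alone had an unadjusted p under 0.05 there, in both fits, against 381 of all genes without a block and 1476 with it. The contrast of lactation with the mean of both other groups gave 0, against 0.473% and 2.39%, with Vdr at 0.70 (SE 0.22; limma, adjusted p = 0.526 without a block and 0.0804 with it).

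The arrays of postlactation and lactation did not overlap for 3 genes, Vdr and Pde4d lower and Rgs2 higher in postlactation. Of all genes 4.38% were lower and 3.26% higher without overlap. The median difference over the 9 genes was 0.02 between lactation and virgin, -0.07 between postlactation and lactation and -0.03 between postlactation and virgin, and over all genes it was 0.01, 0.00 and 0.00. These comparisons share the arrays of a group, so they are not independent of each other.

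**Figure D3:**
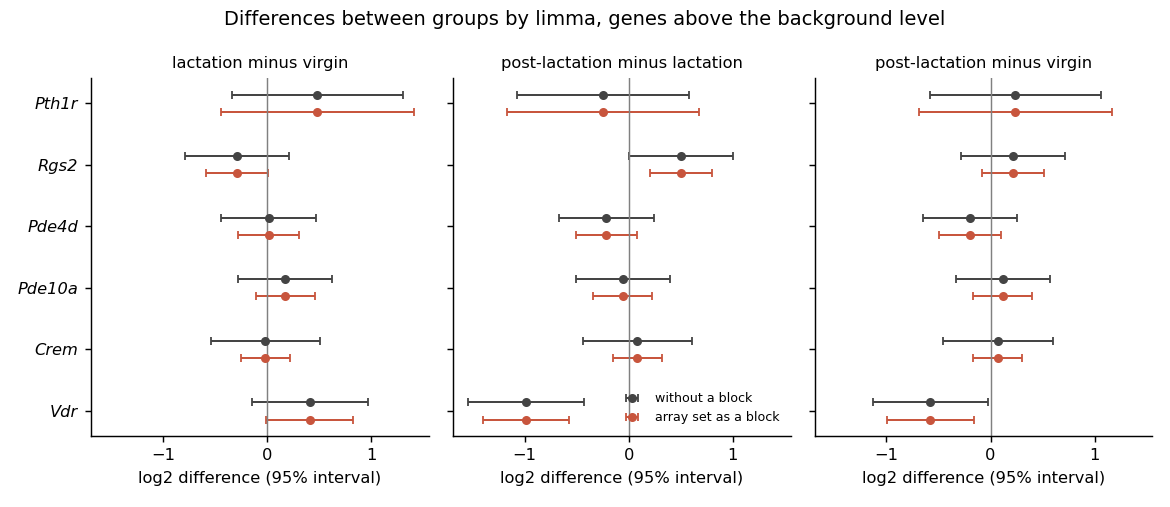
Log2 difference (horizontal axis) of the 6 genes above background in the 3 group comparisons, as points with the 95% interval of the limma fit without a block (grey) and with the set block (red). The interval of Vdr between postlactation and lactation runs from -1.54 to -0.43 without a block and from -1.40 to -0.57 with it, and those of Pth1r, Crem, Pde4d and Pde10a include 0 in every comparison.

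Downstream of the receptor, a beta-arrestin gene gave the largest difference among genes of cyclic AMP and G protein signalling. Arrb1 encodes a protein that uncouples activated receptors, the parathyroid hormone receptor among them. It read 6.92, 7.17 and 6.57 in virgin mice, 7.18, 7.80 and 7.95 in lactation and 6.69, 5.84 and 6.45 in postlactation. Every postlactation array lay below every lactation array, and the mean difference was -1.31, a 2.49-fold lower level (SE 0.29). It did not pass without a block (limma, adjusted p = 0.0931) and passed with the set block (limma, adjusted p = 0.0032), and it passed with the block in 9 of 9 fits that left out 1 array. Within the sets it was -1.26, -1.34 and -1.34. Against the mean of both other groups lactation was higher by 1.03 (limma, adjusted p = 0.195 without a block and 0.0071 with it).

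Of the 28 measured genes on that list, all above background, 0 were called by limma without a block, and 2 had an unadjusted p under 0.05 between postlactation and lactation, against 5.06% of all genes. With it 1 was higher and 1 lower in postlactation than in lactation, where 3.53% of all genes were called. The higher one was Slc9a3r1, which encodes a scaffold that binds the tail of the parathyroid hormone receptor. It had means of 9.30 in virgin mice, 8.78 in lactation and 9.40 in postlactation. Its difference of 0.62 (SE 0.25) had adjusted p = 0.780 without a block and 0.0392 with it in limma. With the block it passed in 1 of 9 fits that left out an array, the fit without lactation 3 (adjusted p = 0.0341), and the others ranged up to 0.197. Gnas, which encodes the stimulatory G protein subunit, had means of 12.08, 12.23 and 12.12 in the same order of groups.

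Among 15 other measured phosphodiesterase genes 9 lay above background. None was called by limma without a block, where 3 had an unadjusted p under 0.05 between postlactation and lactation against 5.06% of all genes, and 2 were higher in postlactation than in lactation with it, where 3.53% of all genes were called. Pde2a, which encodes an enzyme stimulated by cyclic GMP, read 10.64, 10.45 and 10.26 in virgin mice, 10.05, 10.07 and 10.32 in lactation and 11.12, 10.67 and 10.83 in postlactation. The postlactation arrays were above all others, and the difference from lactation was 0.73 (SE 0.21; limma, adjusted p = 0.297 without a block and 0.0038 with it). It was 0.81, 0.77 and 0.62 within the sets and passed with the block in 9 of 9 fits that left out 1 array. Pde4b, a cyclic AMP-specific relative of Pde4d, had means of 8.08, 7.82 and 8.39 and a difference of 0.57 (SE 0.22; limma, adjusted p = 0.691 without a block and 0.0376 with it). Its call held without virgin 1 (adjusted p = 0.0469) or lactation 3 (0.0297) and was lost when any other array was left out, up to 0.187. The other 2 probe sets above background of each of Pde2a, Pde4b and Slc9a3r1 also had a higher mean in postlactation than in lactation. Marker means of erythroid, osteoclast, neutrophil, B lymphocyte, adipocyte and endothelial or mural cells also differed between the same groups. The part of those differences in the values of Arrb1, Slc9a3r1, Pde2a, Pde4b and Mmp13 was not tested.

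**Figure D4:**
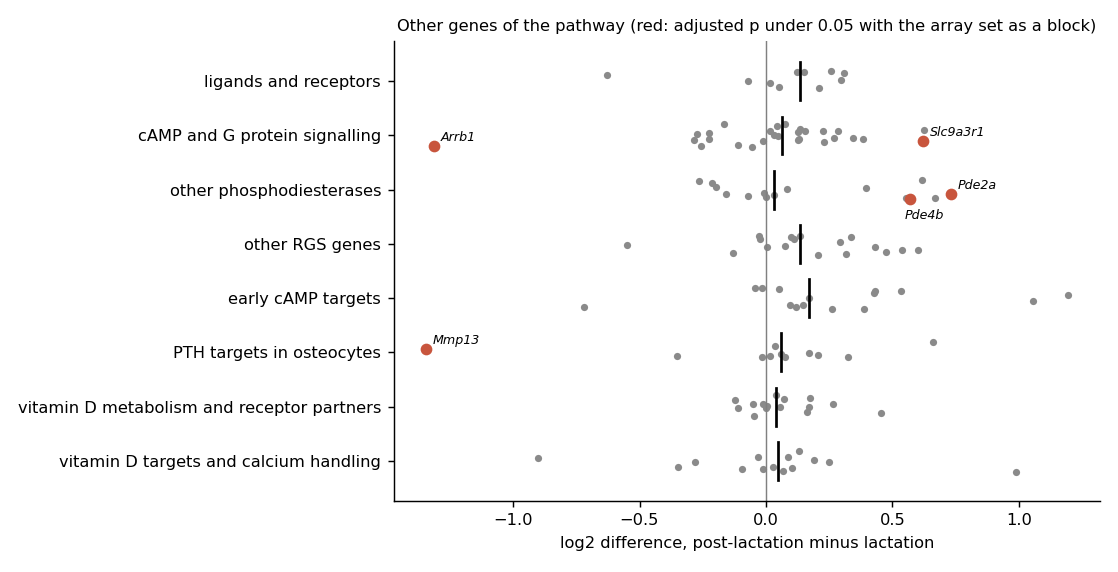
Log2 difference between postlactation and lactation (horizontal axis) for every measured gene of the 8 pathway lists (vertical axis), 1 point per gene, with a bar at each list's median and with genes that passed the limma test with the array set as a block in red and named. Arrb1 and Mmp13 lie on the lower side and Slc9a3r1, Pde2a and Pde4b on the higher side.

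Of 15 measured early targets of cyclic AMP all lay above background, and 0 were called by limma. Between postlactation and lactation 1 had an unadjusted p under 0.05 without a block and 3 with it (all genes, 5.06% and 15.1%). Fos, an immediate early transcription factor gene, had means of 12.82, 12.74 and 12.83 in virgin mice, lactation and postlactation. Nr4a1, an orphan nuclear receptor gene that the hormone induces, had means of 11.23, 11.04 and 11.16. The smallest p between postlactation and lactation belonged to Il6, a cytokine gene, at 1.20 (SE 0.33; limma, adjusted p = 0.254 without a block and 0.0836 with it). Over this list 12 of 15 means were higher in postlactation, with a median difference of 0.17 against 0.00 over all genes.

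The list of parathyroid hormone targets in osteocytes had 11 measured genes, of which 10 lay above background. Between postlactation and lactation 0 were called by limma without a block, where 1 had an unadjusted p under 0.05, and 1 was lower with it, against 3.53% of all genes called: the collagenase gene Mmp13. It read 11.68, 12.51 and 12.13 in virgin mice, 13.28, 13.27 and 12.42 in lactation and 10.51, 11.84 and 12.58 in postlactation. The last of these lay above the lowest lactation array. The difference was -1.35, of -1.91, -0.68 and -1.44 within the sets (SE 0.46; limma, adjusted p = 0.544 without a block and 0.0467 with it), and with the block it passed in 1 of 9 fits that left out an array, the fit without postlactation 3 (adjusted p = 0.0354), while the others ranged up to 0.271. Without a block the difference was -0.78 when postlactation 1 was left out and -1.81 when postlactation 3 was. Mmp13 was listed with its behaviour in these samples known, so its direction is not independent evidence.

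Sost, the gene of the bone formation inhibitor sclerostin that the hormone represses, had means of 11.70, 12.48 and 12.50, with the low virgin mean set by virgin 1. It differed by 0.02 between postlactation and lactation (SE 1.11; limma, adjusted p = 1.00 without a block and with it). Tnfsf11, which encodes the osteoclast-inducing cytokine RANKL, had means of 7.48 ± 0.26 (SD, n = 3), 7.92 ± 0.45 (SD, n = 3) and 8.09 ± 0.22 (SD, n = 3). The difference between postlactation and virgin was 0.61 (SE 0.26; limma, adjusted p = 1.00 without a block and 0.600 with it).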

How the data were processed

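RNA of osteocyte-enriched bone had been hybridised to 9 Affymetrix mouse arrays. The deposited values are log2 intensities that the authors made with RMA (source: the submitters' processing notes). GenePattern and Bioconductor are named in the design text, without versions. Of 45101 probe sets, 34958 carried 1 gene symbol in the platform annotation, 932 several and 9211 none, and symbols were taken from the 34958. Genes were tested with limma 3.58.1 in R 4.3.3 (lmFit and eBayes on all 9 arrays, no block, 6 residual degrees of freedom; 4 with the array set as a block). P-values were Benjamini-Hochberg adjusted over 18194 genes and called at adjusted p under 0.05. The script was tested on simulated data. Array sets were read from pairs of arrays with over 1% of exactly equal values. The title numbers do not pair arrays: deviations of same-numbered arrays correlated from -0.43 to 0.54, and those of the same array set from 0.42 to 0.67. The number of arrays limits precision.

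All 10 genes are named. Other genes are named per list and comparison: up to 4 called in either fit, otherwise the gene above background with the smallest p. Rxra, Trpv6, Pth, Gnas, Fos, Nr4a1 and Sost were added after their values were seen. The members and lists were chosen with earlier results of these data known. Alternatives were another probe set rule, normalisation, filter, trend, block, and each array left out.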

Additional observations from a re-analysis of the deposited data

How the results depend on the processing

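The count of all genes passing the limma test moved most with the array set block. Between lactation and virgin 0 passed, against 4 with the set block, 1 after median subtraction, 1 after quantile normalisation, 4 after quantile normalisation with the block and 2 with a mean-variance trend and the block. Between postlactation and lactation 129 passed, against 642 with the block, 788 over all probe sets with the block, 205 after quantile normalisation, 653 with the block added and 592 with trend and block. Between postlactation and virgin 32 passed, against 82, 81 over all probe sets, 84 with quantile normalisation and 75 with the trend, each with the block. For lactation against the mean of the other groups 86 passed, against 434 with the block, 537 over all probe sets with it, 57 with probe sets averaged, 137 after median subtraction, 137 after quantile normalisation, 452 with the block added and 401 with trend and block. Restricting the test to the 4553 genes without tied values leaves out genes whose difference within a set is 0; it gave 137 genes in that last contrast without a block, and with it 81, 921, 166 and 714 in the 4 contrasts.

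Of the members, 1 passed between postlactation and lactation with the set block, with the block over all probe sets, after median subtraction, and with the block after quantile normalisation or with the trend. With the block, the genes without ties gave 2 (Vdr and Rgs2) there and 1 (Vdr) for lactation against the mean of the others. The block combined with another setting, and the restriction to genes without ties, were chosen after seeing the data. Averaging probe sets turned Pde4d to -0.082 between lactation and virgin and to -0.024 for lactation against the mean of the others, and quantile normalisation gave -0.0017 in the first of these without and with the block.

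Leaving out 1 array, with or without the block, gave 76 to 927 genes and 0 to 1 members between postlactation and lactation, 0 to 42 genes between postlactation and virgin and 1 to 548 genes for lactation against the mean of the others. Signs turned for 4 genes. Crem ranged from -0.19 to 0.13 between lactation and virgin, -0.027 to 0.24 between postlactation and lactation, -0.11 to 0.21 between postlactation and virgin and -0.20 to 0.051 for lactation against the mean. Pde10a ranged from -0.15 to 0.096, -0.029 to 0.19 and -0.037 to 0.20 in the last 3 of these. Pth1r ranged from -0.035 to 0.86, -0.50 to 0.19, -0.28 to 0.62 and -0.069 to 0.62 in the 4, and Pde4d from -0.14 to 0.16 between lactation and virgin. Vdr and Rgs2 kept their signs in each of these fits and comparisons, although within set 3 alone Rgs2 was 0.015 between lactation and virgin.

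With the title number as a replicate block, which does not pair the arrays, 0, 118, 33 and 90 genes passed in the 4 contrasts, and the Vdr difference between postlactation and lactation stayed at -0.99 (limma, adjusted p = 0.249). Near-background values and tied values limit what Casr, Cyp24a1, Cyp27b1, Pde10a and Crem can show.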
